A study of Homo sapiens with 4 samples.

Results

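The comparison is between 2 single-cell RNA libraries of PANC-1 tumours, the library of the tumour treated with agrimoniin and erlotinib together (combination) and the library of the control tumour. It takes in all barcodes of both, 453 of the 1056 in the series, with 202 from control and 251 from combination. PANC-1 is a human line of pancreatic ductal adenocarcinoma, grown here under the skin of nude mice, which lack most T cells but keep natural killer cells, macrophages and other innate cells. Agrimoniin is an ellagitannin of agrimony plants, and erlotinib inhibits the tyrosine kinase of EGFR. The control is the carrier in the design text, and no dose, duration, mouse age or sex was given in the labels. Where the design text writes cyranin, the sample label has erlotinib, and the label was followed. Libraries of tumours given agrimoniin alone and erlotinib alone share the same control. Their values are set beside the combination's as a description, with no interval for a difference from it. Each condition was 1 library, so differences are between libraries, intervals cover counting error only, and no p-value is given.

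In tumours of this kind the human RNA comes from the grafted cancer cells and the mouse RNA from the host's stroma, that is fibroblasts, macrophages, monocytes and vessels. EGFR passes growth signals through the ERK kinases, whose activity induces immediate early transcription factors such as FOS and EGR1 and feedback inhibitors such as the phosphatase DUSP6. Heat shock chaperones fold damaged proteins and are induced through heat shock factor, which binds repeats of the block GAA in their promoters. Chaperone and immediate early genes are also known to respond to enzymatic digestion of tissue, by which these libraries were prepared, and its part in the results was not tested.

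The barcodes were not of single species. Each held UMIs (molecules counted once by their tag) of both genomes, with a human share of 28.2% to 89.9% in control and 39.6% to 94.1% in combination. Below, human part and mouse part stand for the UMIs that a barcode had in genes of either species. Parts under 500 UMIs or 250 genes or over 25% mitochondrial UMIs were left out, which kept 193 of 202 human parts and all 202 mouse parts in control, and 245 and 249 of 251 in combination. Kept human parts summed to 2420470 UMIs in control and 3109510 in combination, with medians of 11586 and 11819 per part. Kept mouse parts summed to 1150462 and 888914 UMIs, and their median was 4836.5 in control and 2977 in combination, so host values are less precise. Human genes took 68.5% of all UMIs in control and 77.9% in combination. Fewer host cells and less RNA per host cell cannot be told apart here, nor can RNA inside a cell and free RNA. No barcode sequence was shared between libraries.

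The human parts were checked against the label. Vimentin (VIM) was at 5609 CPM (counts scaled to a library total of 1000000 over the human parts) in control and 5941 in combination. CDKN2A and CDKN2B, whose locus is deleted in PANC-1, had 0 UMIs in all 4 libraries. The epithelial markers KRT8, KRT18 and EPCAM were low, at 36.8, 49.2 and 20.7 CPM in control, and KRT7, KRT19 and CDH1 had at most 4 UMIs in control. High VIM and the absence of CDKN2A and CDKN2B UMIs are features of the labelled line, while the ductal keratins KRT7 and KRT19 were near 0. These few genes do not settle the identity of the line.

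The promoters of 4 stress genes are shown because heat shock chaperones were the human list with the lowest median in this comparison. The stretches are the 250 bases before the transcription start in RefSeq (GRCh38.p14), 5′ to 3′ on the gene's strand, with capitals at every match to a pair of neighbouring heat shock blocks, GAANNTTC or TTCNNGAA. Both words read the same on either strand. Matches that share a block form a run of 3, or a longer run where further matches are linked, as in CHORDC1. HSPA6 (chr1:161524290-161524539, plus strand) encodes a strictly stress-inducible member of the HSP70 family. ZFAND2A (chr7:1160197-1160446, minus strand) encodes an inducible protein that associates with the proteasome. CHORDC1 (chr11:90223050-90223299, minus strand) encodes a co-chaperone of HSP90, and HSPA8 (chr11:123062137-123062386, minus strand) the constitutive HSP70 family member.
HSPA6: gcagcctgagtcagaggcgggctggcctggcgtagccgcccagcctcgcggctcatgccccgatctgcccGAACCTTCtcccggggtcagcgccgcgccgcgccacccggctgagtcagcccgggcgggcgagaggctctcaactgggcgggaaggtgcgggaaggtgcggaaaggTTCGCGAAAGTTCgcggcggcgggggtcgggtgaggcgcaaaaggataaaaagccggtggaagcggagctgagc
ZFAND2A: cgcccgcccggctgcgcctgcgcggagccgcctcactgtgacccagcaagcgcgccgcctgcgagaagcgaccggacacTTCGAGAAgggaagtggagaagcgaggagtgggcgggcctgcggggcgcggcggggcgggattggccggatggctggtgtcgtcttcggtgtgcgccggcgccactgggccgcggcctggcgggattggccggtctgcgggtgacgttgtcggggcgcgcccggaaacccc
CHORDC1: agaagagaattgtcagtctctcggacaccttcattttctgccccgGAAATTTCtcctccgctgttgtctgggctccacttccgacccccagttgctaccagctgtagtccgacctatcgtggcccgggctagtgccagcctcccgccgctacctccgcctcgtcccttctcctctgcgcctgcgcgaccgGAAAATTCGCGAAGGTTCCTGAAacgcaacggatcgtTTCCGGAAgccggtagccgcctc
HSPA8: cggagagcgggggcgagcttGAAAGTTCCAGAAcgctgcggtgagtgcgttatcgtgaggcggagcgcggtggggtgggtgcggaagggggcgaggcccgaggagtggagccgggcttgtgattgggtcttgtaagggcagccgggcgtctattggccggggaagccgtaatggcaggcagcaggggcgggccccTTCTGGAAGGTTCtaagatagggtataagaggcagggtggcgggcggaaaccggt

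Of the 24 measured chaperone genes with a promoter in the table, 10 (41.7%) held a pair of blocks and 5 (20.8%) a run of 3. Over all 27305 promoters of the same length the shares were 11.7% and 0.439%. Runs of 3 or more were in CHORDC1, DNAJB6, HSPA6, HSPA8 and SERPINH1. A match is a description of the letters and not a binding site, and the values below show that promoters with runs of 3 belonged to genes with unlike differences.

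Human heat shock chaperones were lower in combination than in control. Of 29 listed genes, 26 were measured (mean of at least 10 CPM over both libraries), and 24 of them had a log2 ratio below 0. The log2 ratio here is of CPM plus a pseudocount of 10, which understates differences of low genes. The interval of the ratio lay below 1 for 20 and above 1 for 0, where 8.68% and 10.2% of all 9241 measured human genes lay below and above. A difference of at least 1.5-fold was found for 2, both lower, against 0.53% of measured genes lower and 0.563% higher. The median log2 ratio of the list was -0.36, against 0.02 over all measured genes, and it was -0.16 for agrimoniin and -0.05 for erlotinib against the same control.

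HSPA6 (chr1:161524540-161526910) was at 95 CPM in control and 15.1 in combination, with 21.9 for agrimoniin alone and 101 for erlotinib alone. It was low in both libraries with agrimoniin and alike in control and erlotinib. Combination was 6.29-fold lower (interval 4.58 to 8.8) than control, where the interval is the exact 95% interval of the ratio of CPM, as in all that follow. Reads of HSPA6 may be shared with its near-identical pseudogene copy, so its level is uncertain. ZFAND2A (chr7:1152071-1160759) was at 93.8 CPM in control and 29.3 in combination, with 60.2 for agrimoniin alone and 60.1 for erlotinib alone. Both single-agent libraries lay between control and combination, and combination was 3.2-fold lower (interval 2.5 to 4.13) than control. UMIs of HSPA6 were found in 28% of human parts in control and 10.2% in combination, at like depths.

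The abundant inducible HSP70 genes HSPA1A and HSPA1B, near-identical copies between which reads can be split, were at 3533 to 2705 CPM and 1874 to 1287 CPM from control to combination. HSPA1A was 1.31-fold lower (interval 1.27 to 1.35) and HSPA1B 1.46-fold lower (interval 1.4 to 1.52). The cytosolic chaperone HSP90AA1 was 1.4-fold lower (interval 1.34 to 1.46), at 2112 to 1509.9 CPM. The nucleotide exchange factors BAG3 and HSPH1 were 1.47-fold lower (interval 1.31 to 1.66) and 1.41-fold lower (interval 1.34 to 1.48). The mitochondrial chaperonin genes HSPD1 and HSPE1 were 1.27-fold lower (interval 1.2 to 1.33) and 1.23-fold lower (interval 1.13 to 1.34). These members, inducible and mitochondrial, were thus on the lower side by less than 1.5-fold, while the inducible HSPA6 and ZFAND2A were lower by more.

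Among the genes with a run of 3 blocks, CHORDC1 was 1.44-fold lower (interval 1.31 to 1.57) and DNAJB6, a co-chaperone of HSP70, 1.31-fold lower (interval 1.15 to 1.49). HSPA8 was at 1089 to 1061 CPM, 0.975 times the control (interval 0.926 to 1.03). SERPINH1, a collagen chaperone, was 1.04 times the control (interval 0.91 to 1.19). Intervals of the latter both held 1, as did that of HSPA5, the chaperone of the endoplasmic reticulum from another list, at 1.0 times the control (interval 0.948 to 1.06).

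**Figure D1:**
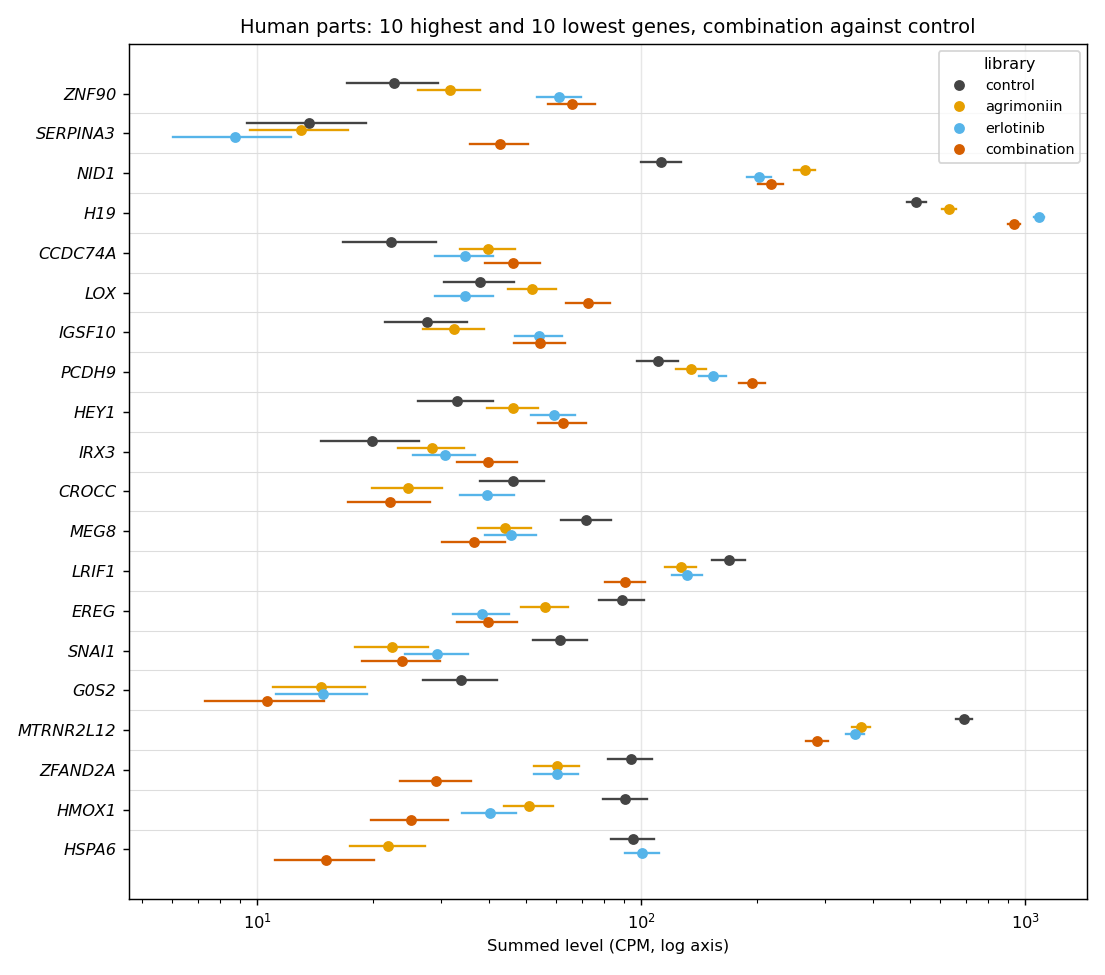
Summed level in CPM (log axis) of the 10 highest and 10 lowest genes of the human parts by log2 ratio of combination to control, in each of the 4 libraries. Points are single libraries and bars are exact 95% Poisson intervals of the count; HSPA6 is at 15.1 CPM in combination against 95 in control, and DUSP6 and other genes ranked below the first 10 are not drawn.

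HMOX1, which encodes the heme-degrading enzyme heme oxygenase and is a target of both NRF2 and stress pathways, was next lowest. It was at 90.9 CPM in control and 25.1 in combination, with 50.9 for agrimoniin alone and 40.3 for erlotinib alone, and combination was 3.62-fold lower (interval 2.79 to 4.75). A single control barcode held 23.6% of its UMIs in that library, and with the top barcode left out on each side the log2 ratio was -1.29 against -1.52. Among 19 measured NRF2 targets HMOX1 was the member past 1.5-fold, and intervals of 4 lay below 1 and 1 above, with a median of -0.08.

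SNAI1, a repressor of E-cadherin, was at 61.6 CPM in control and 23.8 in combination, with 22.5 for agrimoniin alone and 29.4 for erlotinib alone, and all 3 treated libraries were lower than control. Combination was 2.59-fold lower (interval 1.94 to 3.47). It was the 1 of 18 measured mesenchymal genes past 1.5-fold, with intervals of 7 members below 1 and 3 above and a median of -0.18. VIM lay on the other side, at 5609 to 5941 CPM. G0S2, an inhibitor of triglyceride breakdown, was 3.19-fold lower (interval 2.11 to 4.94), from 33.9 to 10.6 CPM.

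Genes of EGFR signalling did not share a direction. EGFR (chr7:55019021-55211628), the target of erlotinib, was at 169 CPM in control and 160.2 in combination, with 159.9 for agrimoniin alone and 184 for erlotinib alone, and combination was 0.948 times the control (interval 0.83 to 1.08), an interval that held 1. EREG (chr4:74365143-74388751), which encodes the EGFR ligand epiregulin, was at 88.8 CPM in control and 39.9 in combination, with 56.1 for agrimoniin alone and 38.4 for erlotinib alone. Erlotinib and combination had like levels, and combination was 2.23-fold lower (interval 1.78 to 2.8) than control. AREG, its neighbour gene for the ligand amphiregulin, was 2.03-fold lower (interval 1.21 to 3.45), at 16.9 to 8.36 CPM. LRIG1, a negative regulator of EGFR, was 1.9-fold lower (interval 1.09 to 3.38). Of 12 measured members of the receptor family and its ligands, 9 were below 0, with intervals of 3 below 1 and 1 above and a median of -0.17. That median turned to 0.05 in human parts with at most 10% mitochondrial UMIs.

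DUSP6 (chr12:89347232-89353271) encodes a phosphatase that inactivates ERK and is induced by it. It was at 186 CPM in control and 312 in combination, with 334 for agrimoniin alone and 95.1 for erlotinib alone. Both libraries with agrimoniin were above control and the library with erlotinib alone was below, and combination was 1.68-fold higher (interval 1.5 to 1.88) than control. ETV5, an ERK-induced transcription factor, was 1.46-fold higher (interval 1.21 to 1.78), at 68.6 to 100.3 CPM, and the feedback inhibitors SPRY4 and SPRY1 were 1.23-fold higher (interval 1.06 to 1.42) and 1.42-fold higher (interval 1.02 to 2.0). EMP1 and IER3 were 1.32-fold lower (interval 1.13 to 1.55) and 1.31-fold lower (interval 1.17 to 1.47). Over 18 measured genes of ERK output and feedback, 9 were above 0 and 9 below, with intervals of 6 above 1 and 4 below and a median of 0.01.

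Of 32 human immediate early genes, all measured, 23 were below 0 and 9 above, with intervals of 12 below 1 and 7 above. EGR4, a transcription factor, was 1.97-fold higher (interval 1.35 to 2.91), at 16.5 to 32.5 CPM. IER5 and the phosphatase gene DUSP2 were 1.62-fold lower (interval 1.35 to 1.94) and 4.71-fold lower (interval 2.45 to 9.8), the latter at 18.2 to 3.86 CPM. The list's median of -0.07 was near that of all genes.

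Lactate genes, named in the study's title, showed small differences in human parts. LDHA, the subunit of lactate dehydrogenase that favours lactate, was at 726 CPM in control and 778 in combination, with 791 for agrimoniin alone and 878 for erlotinib alone, and combination was 1.07 times the control (interval 1.01 to 1.14). LDHB was 0.998 times the control (interval 0.909 to 1.1), at 326 to 325 CPM. Of 13 measured genes of lactate handling, 0 were past 1.5-fold in either direction, with intervals of 2 above 1 and 1 below. Of 17 glycolysis genes, intervals of 6 lay above 1 and 0 below. Their summed level was 4127 CPM in control and 4694 in combination, with 4806 for agrimoniin alone and 4754 for erlotinib alone. GAPDH was 1.24-fold higher (interval 1.17 to 1.32) and PGK1 1.11-fold higher (interval 1.02 to 1.21) in combination. The median of the glycolysis list was 0.02.

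Hypoxia genes were mixed. LOX, which cross-links collagen, was at 38 CPM in control and 72.7 in combination, with 52 for agrimoniin alone and 34.7 for erlotinib alone, and it was 1.91-fold higher (interval 1.49 to 2.46) in combination. NDRG1 and ANGPTL4, both hypoxia-induced, were 2.02-fold lower (interval 1.46 to 2.8) and 1.86-fold lower (interval 1.45 to 2.4). The log2 ratio of NDRG1, -0.75, was -0.11 in barcodes of 75% or more human UMIs. The median over 23 measured members was 0.04.

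Proliferation genes differed little. MKI67, a marker of cycling cells, was at 136 CPM in control and 143 in combination, with 141 for agrimoniin alone and 160.5 for erlotinib alone, and combination was 1.05 times the control (interval 0.906 to 1.21). Of 31 measured S phase genes, intervals of 4 lay above 1 and 0 below, with a median of 0.11. Of 39 genes of G2 and M phase, 3 lay above and 5 below, with a median of 0.02. DCK, the kinase that carries out the first phosphorylation of gemcitabine, was 2.08-fold higher (interval 1.38 to 3.2), at 13.6 to 28.3 CPM.

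The 13 mitochondrially encoded genes summed to 107900.0 CPM in control and 91073 in combination, with intervals of 11 below 1 and 0 above and a median of -0.25. MT-CO1, a subunit of complex IV, was 1.18-fold lower (interval 1.17 to 1.2). MTRNR2L12, a nuclear near-copy of mitochondrial ribosomal RNA whose reads can be shared with it, was 2.42-fold lower (interval 2.23 to 2.62), from 693 to 287 CPM. The nuclear genes of oxidative phosphorylation lay on the other side, with intervals of 11 of 40 above 1 and 2 below and a median of 0.12. The median mitochondrial share of a human part, a sign of RNA quality, was 10.1% in control and 9.13% in combination, and its part in these differences was not tested.

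Among the 15 highest genes were NID1 and LOX of the matrix list and H19 and IGFBP4 of the list of imprinted genes and the IGF axis. NID1 (chr1:235975830-236065162), which encodes the basement membrane protein nidogen, was at 113 CPM in control and 217 in combination, with 266 for agrimoniin alone and 202 for erlotinib alone. All 3 treated libraries were above control, and combination was 1.92-fold higher (interval 1.67 to 2.22). Of 25 measured genes of basement membrane and matrix, intervals of 7 lay above 1 and 2 below. H19 (chr11:1995176-2001470), an imprinted long noncoding RNA, was at 520.1 CPM in control and 935 in combination, with 632 for agrimoniin alone and 1083 for erlotinib alone. Control and agrimoniin were the lower pair, and combination was 1.8-fold higher (interval 1.68 to 1.92). Its log2 ratio of 0.83 was 0.18 in barcodes of 75% or more human UMIs and 0.31 in parts with at most 10% mitochondrial UMIs. IGFBP4, which binds insulin-like growth factors, was 1.87-fold higher (interval 1.41 to 2.49), while the imprinted RNA MEG8 was 1.96-fold lower (interval 1.54 to 2.51). Of 19 measured imprinted and IGF axis genes, intervals of 5 lay above 1 and 4 below.

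Of the other high genes, ZNF90, of a zinc finger family with near-identical copies, was 2.9-fold higher (interval 2.15 to 3.98), from 22.7 to 65.9 CPM. PCDH9, a protocadherin, was 1.76-fold higher (interval 1.52 to 2.04), from 110.3 to 194 CPM. HEY1, a target of Notch, was 1.89-fold higher (interval 1.45 to 2.48), from 33.1 to 62.4 CPM. CAMKK2, a kinase upstream of AMPK, and ULK2, a kinase of autophagy, were 2.15-fold higher (interval 1.43 to 3.3) and 2.04-fold higher (interval 1.38 to 3.07). CCDC74A, which has a near-identical copy, IGSF10 and the homeobox gene IRX3 were 1.96 to 2.08-fold higher. SERPINA3, an acute phase protease inhibitor, was 3.14-fold higher (interval 2.13 to 4.74), but 1 combination barcode held 67.7% of its UMIs, and without the top barcode on each side its log2 ratio was 0.32 against 1.16.

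The 15 lowest named genes included 7 with a promoter in the table, of which 2 held a pair (HSPA6 and ZFAND2A, both of the chaperone list). The 15 highest included 12, of which 2 did (SERPINA3 and ZNF90). Over all promoters the share was 11.7% and over measured human genes 8.49%, and counts this small are not read as a result. The other low genes were LRIF1, MEG8, CROCC, CCDC150, the mitochondrial ribosomal gene MRPL13, the keratin gene KRT80 and the homeobox gene MEIS2, at 1.86 to 2.14-fold lower. KRT80 was at 40.9 CPM in control and 19.9 in combination, with 44.4 for agrimoniin alone and 46.6 for erlotinib alone, and combination alone was low among the 4 libraries. In the epithelial list KRT80 was lower and JUP, a junction protein, 1.56-fold higher (interval 1.32 to 1.86). CROCC, which has near-identical pseudogene copies, had a log2 ratio above 0, at 0.19, when only barcodes of 75% or more human UMIs were used. The p53 targets, 18 measured, had 0 intervals off 1 in either direction, and 4 of 13 genes of MHC class I presentation lay above 1 and 1 below.

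**Figure D2:**
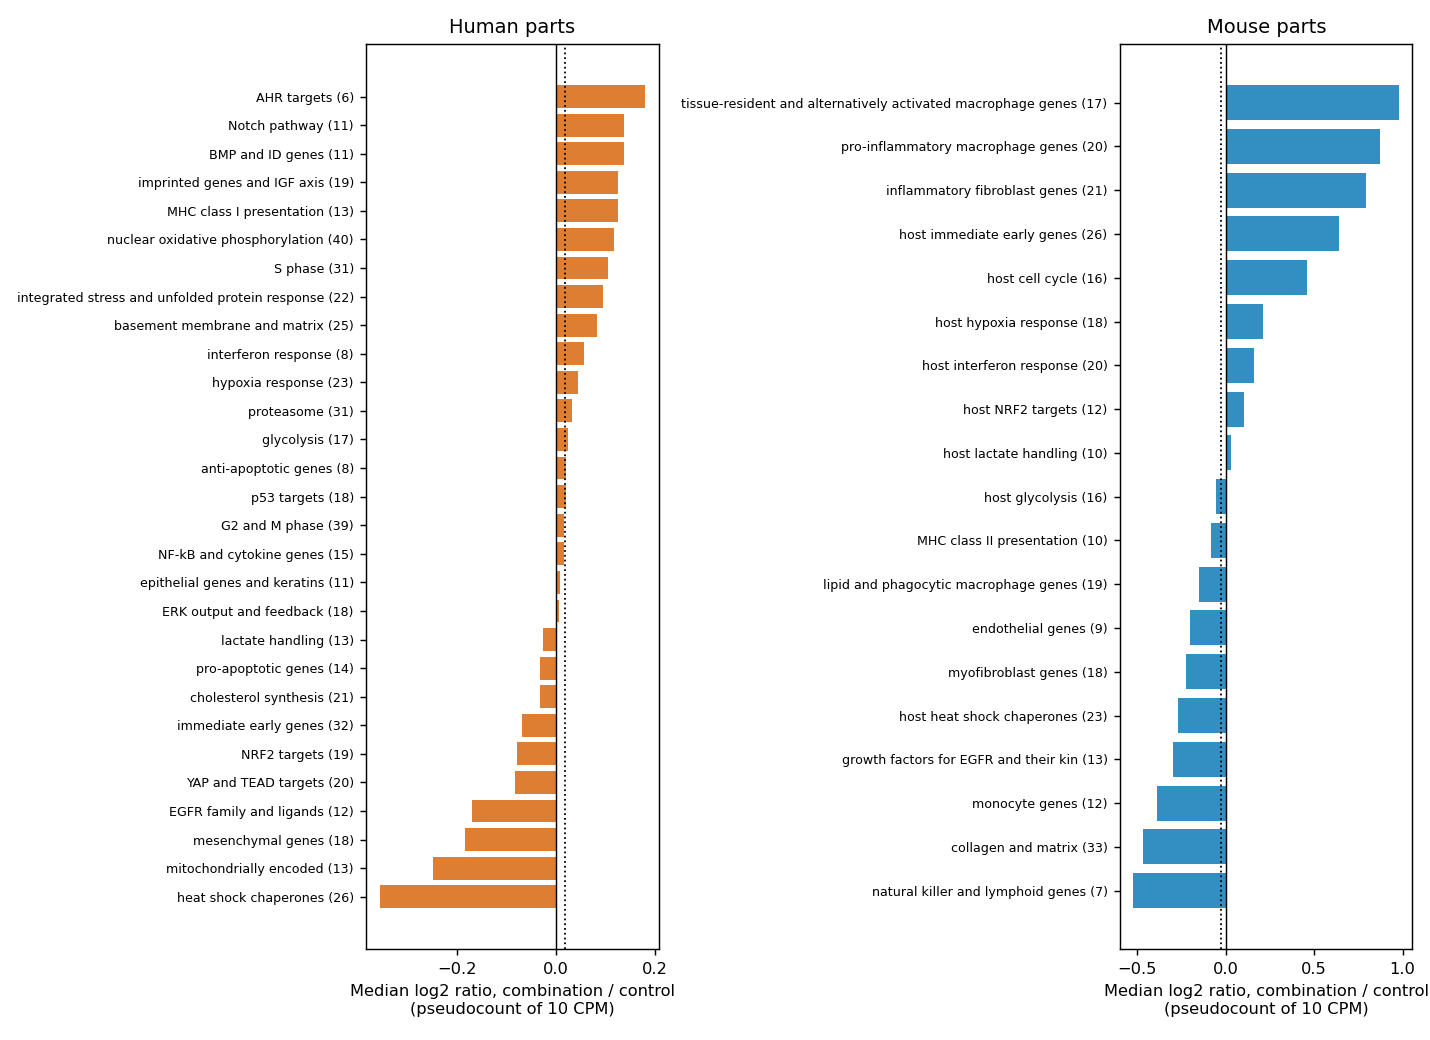
Median log2 ratio of combination to control over the measured members of each list (number in parentheses; lists of at least 5 members), for human parts and mouse parts on different horizontal scales. Dotted lines are the medians over all measured genes; the human list farthest below is heat shock chaperones at -0.36, and the mouse list farthest above is tissue-resident and alternatively activated macrophage genes at 0.98.

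Host RNA differed more widely than tumour RNA. The log2 ratios of 8685 measured mouse genes had an SD of 0.42, where counting error gives 0.25, and those of the human genes an SD of 0.22 where counting gives 0.15. At least 1.5-fold higher were 6.6% of measured mouse genes and lower 6.56%, and intervals of 9.94% lay above 1 and 10.6% below. The SD for agrimoniin and for erlotinib against the same control was 0.42 and 0.44.

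Inflammatory macrophage genes were higher in the host of the combination tumour. Tnf, the cytokine, was at 83.4 CPM in control and 313 in combination, with 161 for agrimoniin alone and 108 for erlotinib alone, and combination was 3.75-fold higher (interval 2.96 to 4.78) than control. The chemokine Cxcl10 was at 287 CPM in control and 804 in combination, with 574 for agrimoniin alone and 549 for erlotinib alone, and it was 2.8-fold higher (interval 2.46 to 3.2) in combination. Il1b and Cxcl2 were 1.83-fold higher (interval 1.64 to 2.04) and 2.18-fold higher (interval 1.96 to 2.43). Of 20 measured pro-inflammatory genes, 15 were past 1.5-fold higher and 0 lower, with intervals of 18 above 1, and the median was 0.87 against -0.02 over all genes.

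Genes of tissue-resident and alternatively activated macrophages were higher as well. Ccl8, a chemokine, was at 125 CPM in control and 703 in combination, with 480.5 for agrimoniin alone and 323 for erlotinib alone, and combination was 5.62-fold higher (interval 4.68 to 6.78). Il10, an anti-inflammatory cytokine, was 5.78-fold higher (interval 3.27 to 10.9), from 13 to 75.4 CPM. The mannose receptor Mrc1 and the folate receptor Folr2 were 2.66-fold higher (interval 1.98 to 3.6) and 2.59-fold higher (interval 1.94 to 3.48). Of 17 measured members 12 were past 1.5-fold higher, with intervals of 12 above 1 and 2 below and a median of 0.98. Single combination barcodes held 64.7% of the Cd163 UMIs and 62.5% of the Arg1 UMIs, and without the top barcode on each side their log2 ratios were 0.52 against 1.11 and 0.29 against 1.18.

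Spp1, which encodes osteopontin, was at 1265 CPM in control and 282 in combination, with 516 for agrimoniin alone and 1096 for erlotinib alone, and it was 4.48-fold lower (interval 3.91 to 5.14) in combination. That sum is over all mouse parts, and Spp1 was also among the lowest named genes of fibroblast-like parts. Of 19 lipid and phagocytic macrophage genes, intervals of 10 lay below 1 and 3 above. Fabp4 in this list was 3.79-fold lower (interval 2.94 to 4.94), with 82.4% of its control UMIs in 1 barcode and a log2 ratio of -0.08 without the top barcode on each side, against -1.80. In MHC class II presentation H2-Eb1 was 1.92-fold higher (interval 1.76 to 2.09), at 794 CPM in control and 1521 in combination, with 2127 for agrimoniin alone and 3043 for erlotinib alone, while H2-Aa, H2-Ab1 and Cd74 were 1.38-fold lower (interval 1.28 to 1.49), 1.25-fold lower (interval 1.16 to 1.34) and 1.35-fold lower (interval 1.26 to 1.46). H2-Eb1 was lowest in control among the 4 libraries and H2-Aa was lowest in combination.

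**Figure D3:**
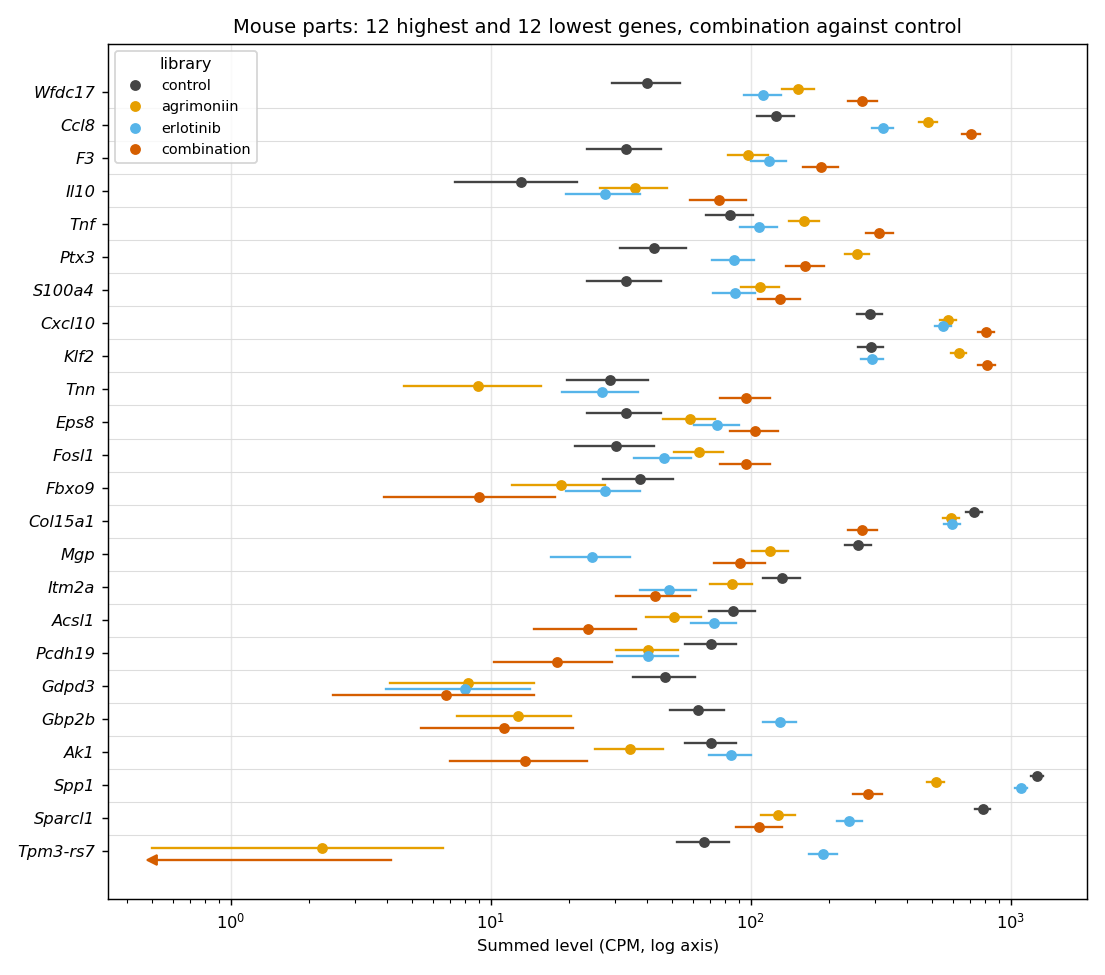
Summed level in CPM (log axis) of the 12 highest and 12 lowest genes of the mouse parts by log2 ratio of combination to control, in each of the 4 libraries. Points are single libraries, bars are exact 95% Poisson intervals of the count, and an arrow marks a count of 0; Sparcl1 is at 781 CPM in control and 108 in combination.

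Collagen and matrix genes were lower. Of 33 genes, all measured, 15 were past 1.5-fold lower and 0 higher, with intervals of 26 below 1 and 2 above. The median was -0.47 in combination, -0.79 in agrimoniin and -0.78 in erlotinib. Col1a1, the main fibrillar collagen gene, was at 19842 CPM in control and 20903 in combination, with 16397 for agrimoniin alone and 20070.0 for erlotinib alone, 1.05 times the control (interval 1.03 to 1.07). Col15a1, of basement membrane zones, was at 725 CPM in control and 269 in combination, with 592 for agrimoniin alone and 596 for erlotinib alone, and it was 2.7-fold lower (interval 2.33 to 3.13) in combination. Col6a3 and the fibronectin gene Fn1 were 1.93-fold lower (interval 1.75 to 2.14) and 1.52-fold lower (interval 1.42 to 1.63). Sparcl1, a matricellular protein, was at 781 CPM in control and 108 in combination, with 128 for agrimoniin alone and 239.9 for erlotinib alone, and all 3 treated libraries were below control. Combination was 7.24-fold lower (interval 5.86 to 9.03) than control. Of 18 myofibroblast genes, intervals of 8 lay below 1 and 1 above, and smooth muscle actin, Acta2, was 0.924 times the control (interval 0.83 to 1.03). The myofibroblast median over all mouse parts was -0.22 in combination, -0.80 in agrimoniin and -1.05 in erlotinib. The median for combination was above 0 in the larger fibroblast cluster described below.

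Inflammatory fibroblast genes were mostly higher, with 12 of 21 past 1.5-fold higher and 4 lower. Their median was 0.79 in combination, 0.94 in agrimoniin and 0.48 in erlotinib. Cfd, 1 of the 4 lower, had 99.7% of its control UMIs in 1 barcode. Its log2 ratio was -0.12 without the top barcode on each side, against -4.99. Ptx3, a pentraxin, was at 42.6 CPM in control and 162 in combination, with 256 for agrimoniin alone and 86 for erlotinib alone, and it was 3.8-fold higher (interval 2.73 to 5.37) in combination. Has1, a hyaluronan synthase, was 2.92-fold higher (interval 2.13 to 4.05), and Il6 2.05-fold higher (interval 1.41 to 3.01). F3, tissue factor, was 5.65-fold higher (interval 3.95 to 8.27), from 33 to 187 CPM. Saa3, an acute phase gene, went from 14.8 to 139.5 CPM, with 58.1% of its combination UMIs in 1 barcode and a log2 ratio of 1.81 without the top barcode on each side, against 2.59. Of 18 hypoxia genes, 4 were past 1.5-fold higher and 1 lower, among them Ndrg1, 2.05-fold higher (interval 1.81 to 2.33), and Adm, the vasodilator adrenomedullin, 2.63-fold higher (interval 1.65 to 4.3). The hypoxia median was 0.21 in combination, -0.48 in agrimoniin and -0.64 in erlotinib.

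Further genes stood at the ends of the host ranking. Wfdc17, a secreted protease inhibitor of macrophages, was at 40.0 CPM in control and 269 in combination, with 152 for agrimoniin alone and 111 for erlotinib alone. It was 6.72-fold higher (interval 4.89 to 9.43) in combination, where 1 barcode held 31% of its UMIs. Its log2 ratio of 2.48 was 1.86 with a mean over parts. S100a4, a calcium-binding protein of motile cells, was 3.92-fold higher (interval 2.69 to 5.81), from 33 to 129 CPM. Fosl1, a member of the AP-1 family, and the signalling adaptor Eps8 were 3.14-fold higher (interval 2.1 to 4.8) and 3.13-fold higher (interval 2.13 to 4.7). Tnn, the matrix protein tenascin N, was at 28.7 CPM in control and 95.6 in combination, with 8.97 for agrimoniin alone and 26.7 for erlotinib alone, so combination alone was high. On the low side Mgp, matrix Gla protein, was 2.84-fold lower (interval 2.22 to 3.68), and erlotinib alone, at 24.6 CPM, was lower still. The adenylate kinase gene Ak1, the protocadherin gene Pcdh19, the fatty acid ligase gene Acsl1, Itm2a and Fbxo9 were 3.09 to 5.22-fold lower.

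Growth factors that feed EGFR or related receptors were mixed in the host. Ereg was 2.37-fold lower (interval 1.27 to 4.7), at 37.4 to 15.8 CPM, and Fgf2 2.25-fold lower (interval 1.52 to 3.41). Fgf7, made by fibroblasts for epithelial cells, was 2.36-fold higher (interval 1.46 to 3.88). Host Egfr was 1.04 times the control (interval 0.768 to 1.41). Over 13 measured members intervals of 6 lay below 1 and 3 above.

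Chaperones were lower in host and in tumour RNA, while immediate early genes were higher in host RNA. Of 25 chaperone genes measured under the same letters in both species, 19 were below 0 in both and 12 had both intervals below 1, where of 6556 pairs over all genes 1648 and 89 did. In mouse parts Hspa1a was at 2813 CPM in control and 1785 in combination, with 2144 for agrimoniin alone and 2946 for erlotinib alone, and it was 1.58-fold lower (interval 1.48 to 1.67) in combination. Hspd1 was 2.25-fold lower (interval 1.86 to 2.72) and Hspb1 1.99-fold lower (interval 1.75 to 2.27). Zfand2a was 1.09 times the control (interval 0.833 to 1.42) and Hmox1 1.1 times the control (interval 0.917 to 1.32), both with intervals that held 1, where the human intervals lay below 1, and the difference between species was not tested. Of 26 host immediate early genes, all measured, 15 were past 1.5-fold higher and 0 lower, with intervals of 23 above 1 and 1 below, the latter Egr2. Fos was at 3632 CPM in control and 5803 in combination, with 5615 for agrimoniin alone and 3223 for erlotinib alone, 1.6-fold higher (interval 1.53 to 1.66) in combination, with control and erlotinib the lower pair. Klf2 was at 289 CPM in control and 810.0 in combination, with 631 for agrimoniin alone and 294 for erlotinib alone, and it was 2.8-fold higher (interval 2.45 to 3.2) in combination. The list median was 0.64 in combination, 0.61 in agrimoniin and 0.23 in erlotinib. Of 32 same-letter immediate early genes, 22 were below 0 in human parts and above 0 in mouse parts of the same barcodes, as were 1432 of the 6556 pairs over all genes.

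**Figure D4:**
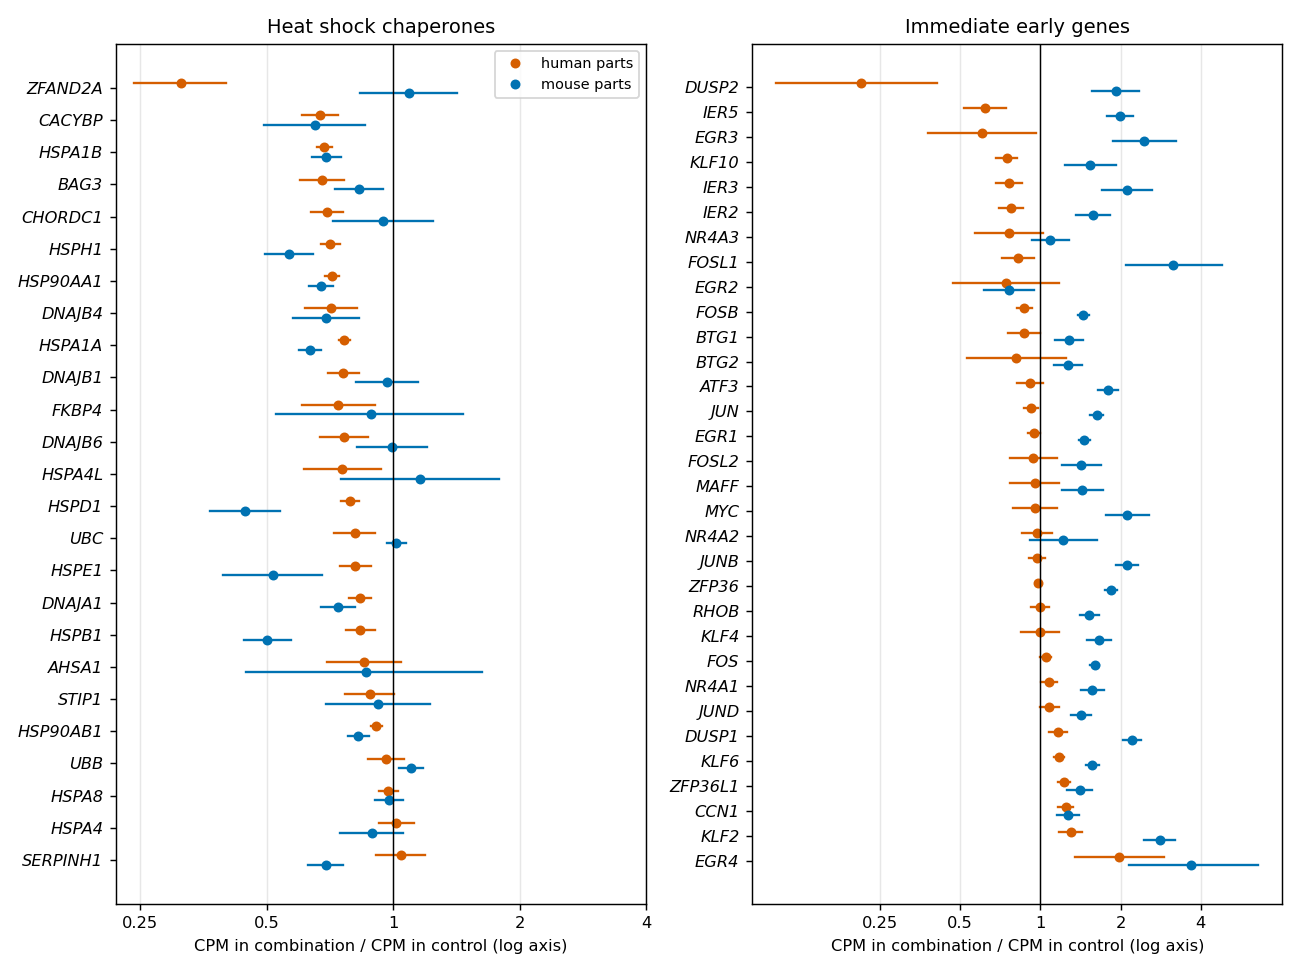
Ratio of CPM in combination to CPM in control (log axis) with its exact 95% interval for each heat shock chaperone and immediate early gene measured in both species under the same letters. Orange is human parts and blue is mouse parts; most chaperones lie left of 1 in both, and the blue immediate early genes lie right of 1 apart from Egr2.

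Mouse parts were clustered over all 4 libraries, and clusters were named from marker lists. The names were rebuilt here, no doublet caller was run because every barcode held 2 species, and doublets were not removed. Col1a1, a fibroblast gene, was at 368 CPM in macrophage-like and 33397 CPM in fibroblast-like parts of control, and at 206 and 42144 CPM in those of combination, and the part of RNA from other cells was not tested. Fibroblast-like parts, 87 in control and 93 in combination, came from cluster 0, with 72 and 56, and cluster 4, with 15 and 37. Macrophage-like parts, 40 and 64, came from cluster 2, with 31 and 35, and cluster 5, with 9 and 29. Monocyte-like parts were cluster 1, with 27 and 41. Clusters 4 and 5 weigh more in combination, so each class is given with its larger cluster alone. The genes that set clusters apart are no result.

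Host immediate early genes were higher in each class. In fibroblast-like parts, intervals of 23 of 26 lay above 1 and 0 below, where 7.68% and 8.45% of all measured genes did, and in cluster 0 alone 17 and 1 (all genes 5.18% and 5.3%). At least 1.5-fold higher and lower were 19.6% and 19% of measured genes in macrophage-like parts, at their low depth. In macrophage-like parts it was 19 of 25 above and 0 below (all genes 4.76% and 4.74%), and in cluster 2 alone 17 and 0 (all genes 3.23% and 2.74%). In monocyte-like parts 14 of 26 lay above and 1 below (all genes 3.71% and 3.7%). Klf2 in cluster 2 was at 556 CPM in control and 1669 in combination, with 1114 for agrimoniin alone and 834 for erlotinib alone, and it was 3.0-fold higher (interval 2.27 to 4.0) in combination.

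The resident and alternatively activated genes were higher in the macrophage-like class and not in its larger cluster alone. Their intervals lay above 1 for 15 of 17 in macrophage-like parts, with a median of 1.53, and for 2 of 10 in cluster 2 alone, with 1 below and a median of -0.23. Ccl8, Cbr2, F13a1, Lyve1 and Folr2 of this list were among the leading genes of cluster 5, with 9 parts in control and 29 in combination. The class value cannot be told apart from the share of that cluster. Ccl8 was 4.57-fold higher (interval 3.72 to 5.64) in the class and had 10 UMIs in control and 2 in combination in cluster 2. Pro-inflammatory genes were above 1 for 10 of 18 in the class, 8 of 18 in cluster 2 with 1 below, and 11 of 18 in monocyte-like parts. Within cluster 2, Il1b was 1.87-fold higher (interval 1.61 to 2.17) and Tnf 2.02-fold higher (interval 1.32 to 3.11), and Spp1 was 5.73-fold lower (interval 3.21 to 11.1). Tnf in monocyte-like parts was 3.45-fold higher (interval 2.2 to 5.6), from 252 to 869 CPM.

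Inflammatory fibroblast genes were likewise higher in the fibroblast-like class and not in cluster 0 alone. In fibroblast-like parts 14 of 22 lay above 1 and 3 below, with a median of 0.95, and in cluster 0 alone 1 of 15 above and 5 below, with a median of -0.63. Cfd, Prg4 and Ly6c1 of this list were among the leading genes of cluster 4, with 15 parts in control and 37 in combination. This class value, too, cannot be told apart from the share of the cluster. Collagen and matrix genes lay below 1 for 22 of 33 in the class and 21 in cluster 0, although Col1a1 was 1.26-fold higher (interval 1.24 to 1.29) in the class and 1.18-fold higher (interval 1.15 to 1.21) in cluster 0. Sparcl1 was 11-fold lower (interval 7.71 to 16.1) in the class and 7.65-fold lower (interval 5.38 to 11.2) in cluster 0. Hypoxia genes lay above 1 for 10 of 18 in the class and 10 in cluster 0, where the median was 0.67 for combination, -0.27 for agrimoniin and -0.30 for erlotinib. In cluster 0, Ndrg1 was 2.69-fold higher (interval 2.26 to 3.2) and the glucose transporter Slc2a1 2.48-fold higher (interval 1.89 to 3.26), from 194 to 481 CPM. Glycolysis genes lay above 1 for 9 of 16 and below for 0 in cluster 0, but above for 2 and below for 1 in the class, with medians of 0.42 and 0.08. Myofibroblast genes lay above 1 for 8 of 18 and below for 4 in cluster 0, with a median of 0.22, and above for 2 and below for 5 in the class, with a median of -0.05. With clustering at a resolution of 1.0 the medians of fibroblast-like parts were -0.31 for glycolysis, -0.45 for myofibroblast and 0.25 for hypoxia genes. The directions of the glycolysis and myofibroblast lists thus depended on the clusters taken in. At that resolution a cluster led by Hmga2 and Grem1, with 23 parts in control and 23 in combination, was left out as unnamed. It had 11 parts in agrimoniin and 11 in erlotinib, and Pgf, Ero1l and P4ha2 were also among its leading genes. Makeup within cluster 0 was not tested.

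Single genes of the fibroblast-like and macrophage-like classes were named by rank. In fibroblast-like parts Mmp3 and Mmp10 encode matrix-degrading stromelysins and Scd1 a desaturase of fatty acids. The 6 highest were Mmp3, Cxcl10, Prg4, F3, Mmp10 and Ifit1, with 14 to 53 UMIs each in control and 81 to 250 in combination. The 6 lowest were Sparcl1, Scd1, Spp1, Mgp, Gbp2b and Ak1, with 24 to 1080 UMIs each in control and 2 to 173 in combination. In macrophage-like parts Mmp12 encodes macrophage elastase and Ccr2 the receptor that draws monocytes from the blood. The 6 highest were Phf10, Hist1h1c, Xpo4, Wdr61, Adh5 and Wfdc17, with 0 to 33 UMIs each in control and 10 to 218 in combination. The 6 lowest were Tpm3-rs7, Gdpd3, Plcb2, A930014D07Rik, Mmp12 and Ccr2, with 13 to 63 UMIs each in control and 0 to 9 in combination. Mmp12 was 1.57 times the control (interval 0.966 to 2.53) in cluster 3, which the class leaves out. At a resolution of 1.0 the class took in a cluster of 157 parts led by Mmp12, and Mmp12 and Ccr2 were not among its 6 lowest genes. The class sum of 179501 UMIs in macrophage-like parts of control means that ranks there rest on few molecules.

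Chaperones were lower in the 3 named classes, with intervals below 1 for 13 of 23 in fibroblast-like parts (9 in cluster 0), 11 of 20 in macrophage-like parts (5 of 19 in cluster 2) and 7 of 21 in monocyte-like parts. Above 1 were 2, 0 and 0 in those classes. Median UMIs per part were lower in combination in every class compared, for example 6229 against 3659 in fibroblast-like parts, and the part of depth was not tested.

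Cluster 3, with 31 mouse parts in control and 31 in combination, stayed unnamed. Under 3 markers of its nearest class, mast-like, were both higher there and found in at least 10% of its parts. Its leading genes included the mast cell proteases Cpa3 and Mcpt4 and the macrophage gene Mmp12. At a resolution of 1.0 the proteases led a mast-like cluster of 25 parts, and Mmp12 a macrophage-like cluster of 157. Cluster 3 may thus hold cells of both kinds, which was not tested. Its chaperones had intervals below 1 for 2 of 20 and above 1 for 1, where 2.63% and 3.3% of all its measured genes did, and the median was -0.04. Hspd1 and Hsph1 were 3.27-fold lower (interval 1.45 to 8.64) and 2.89-fold lower (interval 1.19 to 8.46), while Hspa8 was 1.67-fold higher (interval 1.32 to 2.12). Hspa1a was 1.3 times the control (interval 0.899 to 1.86) there, an interval that held 1. Immediate early genes lay above 1 for 15 of 22 and below for 0, and pro-inflammatory genes for 10 of 19 and 0. Resident and alternatively activated genes lay above 1 for 0 of 12 and below for 3.

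**Figure D5:**
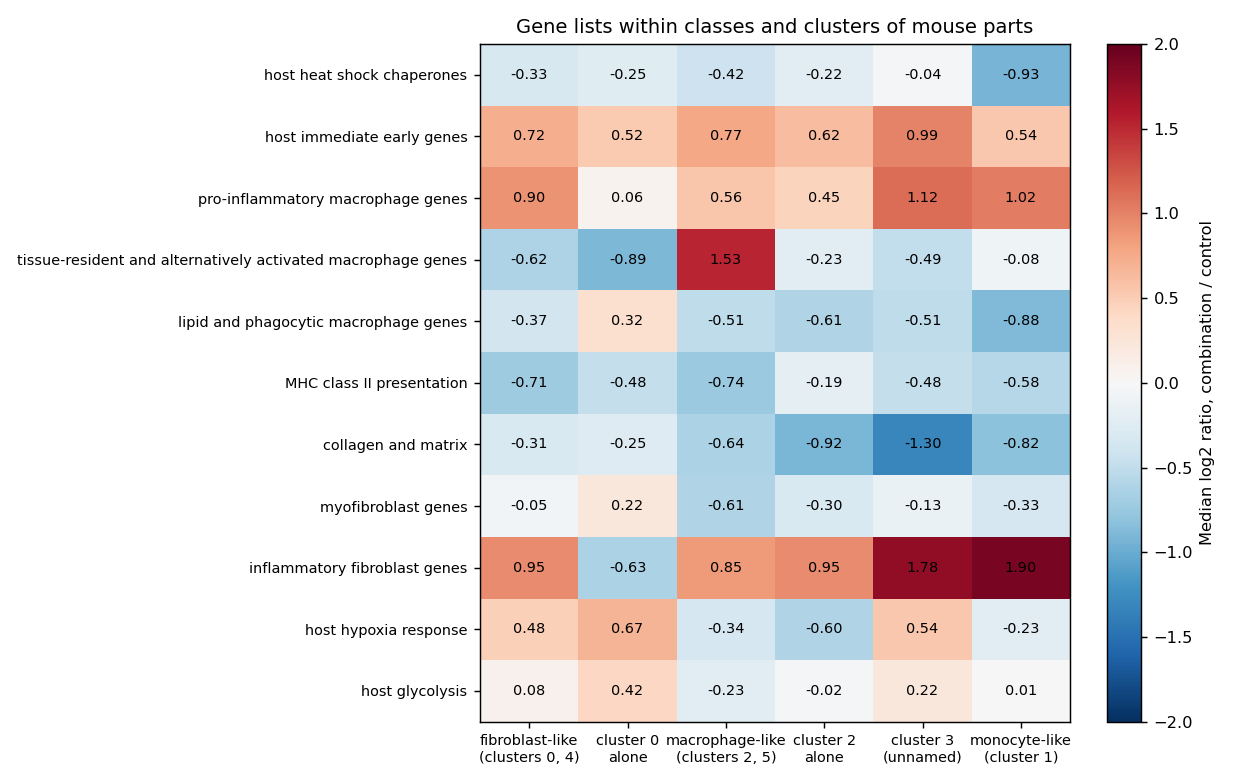
Median log2 ratio of combination to control over the measured members of 11 mouse lists (rows) in 3 classes, 2 of their clusters alone and the unnamed cluster 3 (columns), with the value printed in each cell and red for higher, blue for lower. Tissue-resident and alternatively activated macrophage genes are at 1.53 in macrophage-like parts and -0.23 in cluster 2 alone, and inflammatory fibroblast genes at 0.95 in fibroblast-like parts and -0.63 in cluster 0 alone.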

How the data were processed

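Single-cell 3 prime RNA libraries of 4 tumours, 1 per condition, were used, and combination was compared with control. Cell Ranger, hg38 and mm10 are named in the submitters' processing notes, with no version. The authors deposited raw UMI counts for each gene in each barcode. Deposited barcodes have 27 bases, which is not the layout of the kit named in the labels' protocols, and number far under the target of 8000 cells, so the platform and barcode calling are in doubt.

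Counts of kept parts were summed per library and scaled to CPM over all genes of the species. Exact 95% intervals of a CPM ratio were taken from the binomial split of the 2 counts given their sum. For log2 ratios 10 CPM was added to both levels, and a gene was measured at a mean of at least 10 CPM. Where 1 library had a count of 0, its floor was set at 3 counts. No test across samples was possible with 1 library per condition. Ratio and interval were tested on simulated Poisson counts. These leave out the gathering of a gene's UMIs in single barcodes, which the intervals do not cover.

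Named genes were the 15 highest and 15 lowest human and 12 and 12 mouse log2 ratios, at a mean of at least 20 CPM and detection in 10% or more of the parts of the higher library, with 6 and 6 per mouse class, EGFR, LDHA, LDHB and MKI67, and list members past 1.5-fold or of high level or difference. The ranked genes of monocyte-like parts are not reported here. The 29 human and 20 mouse lists and the members were chosen with earlier results of these data known. HSPA5 and the genes of the check of the line were added for comparison. Clustering of mouse parts used scanpy 1.11.5, with 2000 variable genes, 20 principal components, 15 neighbours and Leiden clustering at a resolution of 0.5, and a class needed 20 parts in both libraries. Gene positions are from GENCODE 29 (GRCh38). Python 3.11.15, numpy 2.4.6, scipy 1.17.1 and pandas 2.3.3 were used. Alternatives were another pseudocount, CPM minimum and scaling, totals without mitochondrial genes, means over parts, no top barcode, stricter part limits and clustering resolution.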

Additional observations from a re-analysis of the deposited data

Results flagged for a closer look

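Of 6556 genes measured under the same letters in both species, 9 were past 1.5-fold in opposite directions in the tumour and host RNA of the same barcodes. Over all measured genes, 0.563% were past 1.5-fold higher and 0.53% lower in human parts, and 6.6% and 6.56% in mouse parts. A count this small is not read as a result about the species. The difference between species was not tested, with 1 library per condition. Values are log2 ratios of combination to control. DUSP2 was -1.02 in human parts and 0.89 in mouse parts. IER5 was -0.62 in human parts and 0.98 in mouse parts. IGFBP4 was 0.72 in human parts and -0.73 in mouse parts. LOX was 0.78 in human parts and -0.72 in mouse parts. MAP3K8 was -0.64 in human parts and 0.93 in mouse parts. MXD1 was -0.65 in human parts and 0.83 in mouse parts. NDRG1 was -0.75 in human parts and 1.01 in mouse parts. PPP1R10 was -0.62 in human parts and 0.60 in mouse parts. ULK2 was 0.70 in human parts and -0.69 in mouse parts. LOX was at 38 to 72.7 CPM in human parts and 1243 to 749 CPM in mouse parts from control to combination. NDRG1 was at 42.1 to 20.9 CPM and Ndrg1 at 353 to 723 CPM. In barcodes of 75% or more human UMIs the human log2 ratio of NDRG1 was -0.11. Past 1.5-fold in the same direction were EREG, GTF3C6 and MRPL13, lower in both species, and EGR4 and TUBB2B, higher in both.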

How the results depend on the processing

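No paired analysis was possible because each condition was 1 library and the labels give no replicate numbers. For the same reason no library could be left out. Human genes at least 1.5-fold higher and lower numbered 52 and 49. They were 248 and 223 with a pseudocount of 1 CPM, 11 and 20 at a mean of at least 50 CPM, 201 and 160 in barcodes with at least 75% human UMIs, and 170 and 130 in parts with at most 10% mitochondrial UMIs, and 86 were lower with a mean over parts. Totals without mitochondrial genes gave 52 higher and 71 lower, so the balance of the directions depends on scaling. Mouse counts were 573 and 570, and 944 and 1016 with a pseudocount of 1 CPM and 247 and 193 at a mean of at least 50 CPM. Macrophage-like genes higher numbered 1547 at the main resolution and 984 at a resolution of 1.0. Fewer UMIs or a smaller pseudocount raise such counts by construction. Under the alternatives the human chaperone median ran from -0.44 to -0.31 and the mouse one from -0.43 to -0.24, the mouse collagen median from -0.58 to -0.33 and the mouse immediate early median from 0.64 to 0.68. HSPA6 ran from -2.58 to -2.06 and DUSP6 from 0.66 to 1.22. Of 351 values of named human genes under alternatives 325 stayed within the counting interval, and of 1242 mouse values 1168 did. Directions turned for CROCC (0.19, barcodes with at least 75% human UMIs), the EGFR family median (0.0505) and the Notch median (-0.0126, both at most 10% mitochondrial UMIs), the host growth factor median (0.15, no CPM minimum), Gzmb (0.066), Il2rb (0.31) and the median of the natural killer and lymphoid list (0.066, all with a mean over parts), the neutrophil median (-0.086, common minimum of mouse UMIs) and Fabp4 (0.42, at most 10% mitochondrial UMIs, an alternative chosen after seeing the data, as were single clusters). The cause was not tested. Counting error does not cover differences between tumours, animals or days, and host genes at a few UMIs are limited by depth.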

Other observations

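Some large host differences came from single barcodes. All 103 control UMIs of Gzma, a granzyme of natural killer cells, and all 146 of Adipoq, the adipocyte hormone adiponectin, were in 1 barcode each, and combination had 0. Cfd, the adipocyte protease adipsin, had 353 UMIs in control, 99.7% of them in 1 barcode. Hp, haptoglobin, had 88.9% of its control UMIs in 1 barcode.

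Other host genes differed widely between the libraries. Tpm3-rs7, a copy of Tpm3 with which reads can be shared, was at 66.1 CPM in control and 0 in combination, with 2.24 for agrimoniin alone and 190.1 for erlotinib alone, at least 19.6-fold lower in combination by the floor of 3 counts, and was found in 27.7% of control mouse parts. Tpm3 was at 390.3 CPM in control and 399 in combination, with 466 for agrimoniin alone and 381 for erlotinib alone. Gbp2b, of a family of near-identical interferon-induced GTPases, was at 62.6 CPM in control and 11.2 in combination, with 12.7 for agrimoniin alone and 129 for erlotinib alone. For both, control and erlotinib were the higher pair. Gdpd3 was at 46.9 CPM in control and 6.75 in combination, with 8.22 for agrimoniin alone and 7.95 for erlotinib alone, with control alone high. Host cell cycle genes had intervals above 1 for 6 of 16 measured members and below for 0, where 9.94% and 10.6% of all measured mouse genes did. Mki67 was 1.75-fold higher (interval 1.33 to 2.33). A small unnamed cluster with Stmn1 and Top2a among its leading genes had 3 parts in control and 8 in combination, and its part was not tested. Host interferon response genes lay above 1 for 5 of 20 and below for 1. Xist had 0 UMIs in all 4 libraries, and the Y-linked mouse gene Ddx3y was at 153 CPM in control and 126 in combination, with 140.5 for agrimoniin alone and 147 for erlotinib alone.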
